A study of Mus musculus with 8 samples.

Results

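The FGF4-ERK genes examined here were 10 genes that span the pathway from its ligand to its transcriptional targets: the ligand Fgf4, the receptors Fgfr1 and Fgfr2, the feedback inhibitors Spry2, Spry4, Dusp4 and Dusp6, and the transcription factors Etv4, Etv5 and Egr1. They were picked by gene symbol under a rule that uses no expression values, although earlier results of these data were known. They are 10 of the 22878 gene entries (22499 distinct symbols) in the expression tables. Each gene had 1 entry, and no other entry overlapped any of them. RNA-seq was performed on the mouse embryonic stem cell (ESC) line R1 and on the induced pluripotent stem cell (iPSC) lines designated 16-6, 32, T2 and S8. The iPSC lines were secondary lines, made from somatic cells of all-iPSC mice that carry doxycycline-inducible Oct4, Sox2, c-Myc and Klf4 in every cell. The mesodermal sources were hematopoietic cells for 16-6 and adipocyte progenitors for 32, the ectodermal source was epidermis for S8, and the endodermal source was the lining of the stomach for T2. All lines were kept on mitomycin C-treated mouse embryonic fibroblasts with LIF, and the labels give the tissue as embryo. There were 8 libraries, 2 for each of R1, 16-6 and 32 and a single one for S8 and for T2. Each origin is represented by 1 line, so an origin cannot be told apart from the line that stands for it.

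Fibroblast growth factors bind FGF receptors together with heparan sulfate, and the active receptor passes the signal through FRS2, GRB2 and SOS to RAS, RAF, MEK and ERK. In mouse ESCs, FGF4 secreted by the cells themselves is the main stimulus of ERK, and blocking the pathway keeps the cells in the naive pluripotent state while its activity makes them competent to differentiate. ERK also limits itself, because its target genes include the Sprouty proteins, which act between the receptor and RAF, and the dual-specificity phosphatases, which remove the activating phosphates from ERK. The RNA levels below are those of the pathway's components and targets and are not a measure of ERK phosphorylation.

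Expression is given as FPKM, fragments per kilobase of transcript and per 1000000 mapped fragments, after division of all deposited values by the same constant. That constant sets the scale and does not equalize the libraries. Their totals ran from 899033 in T2 to 1259521 in 32 (replicate 1), and their upper quartiles from 16.3 in 32 (replicate 1) to 17.6 in R1 (replicate 2). The number of fragments implied by the files' confidence limits was, in units of 1000000, 15.5 to 16.7 per library. For the 10 genes it ranged from 251 for Fgfr2 to 14097 for Etv5 in a single library. Being derived from the limits, it restates the error they give, and it is approximate for genes with several transcripts. The study lists more reads for S8 and T2 than for the other libraries, while the fragments implied by the deposited values were alike. The 8 pluripotency markers examined, among them Pou5f1, Sox2, Nanog and Tdgf1, were expressed in every library, with a summed FPKM of at least 2605 (16-6, replicate 1) and at most 5305 (S8). Single markers differed between the lines in either direction. Zfp42 was at 541 and 544 in R1, 141 and 144 in 16-6, 258 and 277 in 32, 119 in S8 and 92.9 in T2. Esrrb was at 184 and 175 in R1, 86.4 and 87.1 in 16-6, 172 and 178 in 32, 60.2 in S8 and 53.4 in T2. Utf1 was at 426 and 441 in R1 and at 1193 in S8. Fibroblast markers, of which 12 of 12 were found and 0 were at zero in any library, summed to 902 and 938 in R1, 1565 and 1555 in 16-6, 68.1 and 67.5 in 32, 339 in S8 and 532 in T2. In 32 only Dcn and Lum lay below an FPKM of 1. Unlike the sum, these genes were higher in R1 than in 16-6. Dcn was at 217 and 204 in R1 and 32.9 and 33.3 in 16-6, and Lum at 50.6 and 59.2 against 7.08 and 7.91. Of the trophoblast markers, 5 of 6 were found and summed to 19.3 and 19.3 in R1, 155 and 158 in 16-6, 133 and 129 in 32, 49.7 in S8 and 140 in T2, mostly from Krt8 and Krt18. Eomes was at 2.91 and 2.93 in R1, 9.13 and 8.50 in 16-6, 14.4 and 15.3 in 32, 2.53 in S8 and 4.72 in T2, and rose in 16-6 and 32, while Cdx2 stayed at or below 1.31 and Elf5 at or below 0.224. For primitive endoderm, Gata4, Gata6, Sox17, Sox7 and Foxa2 stayed at or below 1.52, while Dab2 and Pdgfra reached 13.2 and 9.92 in R1 and were lowest in 32, and the list summed to 4.84 to 27.2. The differences between the replicate libraries of R1, 16-6 and 32 had 1.46, 1.10 and 1.42 times the variance of Poisson sampling, over the 5938 to 6393 genes with at least 20 implied fragments in a pair, fewer than 2000 in each library, and values within 0.02 of a whole number. The labels do not say whether replicates were separate cultures, so the p-values measure the spread between these libraries, which may be technical.

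All 10 genes were expressed in every library and passed the filter on low values, and at most 1 of them was called in any single comparison. A gene was called when its limma p-value, adjusted by the Benjamini-Hochberg method over all 13693 genes tested, was below 0.05 and its level differed at least 2-fold on the log2(FPKM + 1) scale. Against R1, 0 of the 10 were called in 16-6, where 7.11% of all genes tested were called, and 0 of 10 in 32, where the background was 9.77%. In S8 and in T2 the gene called was Spry4, 1 of 10 in each, against 16.7% and 10.5% of all genes. The mean of the 4 iPSC lines gave 0 of 10 against 6.41%. Between the mesodermal lines 16-6 and 32 the gene called was Fgfr1, 1 of 10 against 10.3%, and between S8 and T2 there was none, 0 of 10 against 2.75%. Without the 2-fold minimum, the adjusted p was below 0.05 for 7 of 10 genes in 16-6 against R1 (55.6% of all genes), 8 of 10 in 32 (61.5%), 8 of 10 in S8 (66.7%) and 8 of 10 in T2 (57.9%). The corresponding counts were 8 of 10 for the mean of the iPSC lines (65% of all genes), 8 of 10 for 16-6 against 32 (60.4%) and 5 of 10 for S8 against T2 (34.5%). The median absolute log2 difference from R1 was 0.38 for the 10 genes and 0.29 for all genes in 16-6, 0.34 and 0.32 in 32, 0.40 and 0.47 in S8, and 0.26 and 0.36 in T2. The median of the 10 genes was thus above that of all genes in 16-6 and 32 and below it in S8 and T2. S8 and T2 had no replicate, so their tests assume that a single library of these lines varies like the replicated ones, and line and library cannot be told apart there. All 4 comparisons with R1 share its 2 libraries. By direction, the calls over all genes tested were 490 higher and 484 lower in 16-6, 211 and 1127 in 32, 949 and 1334 in S8, and 541 and 896 in T2, and under quantile normalization those in 32 were 391 and 752.

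**Figure D1:**
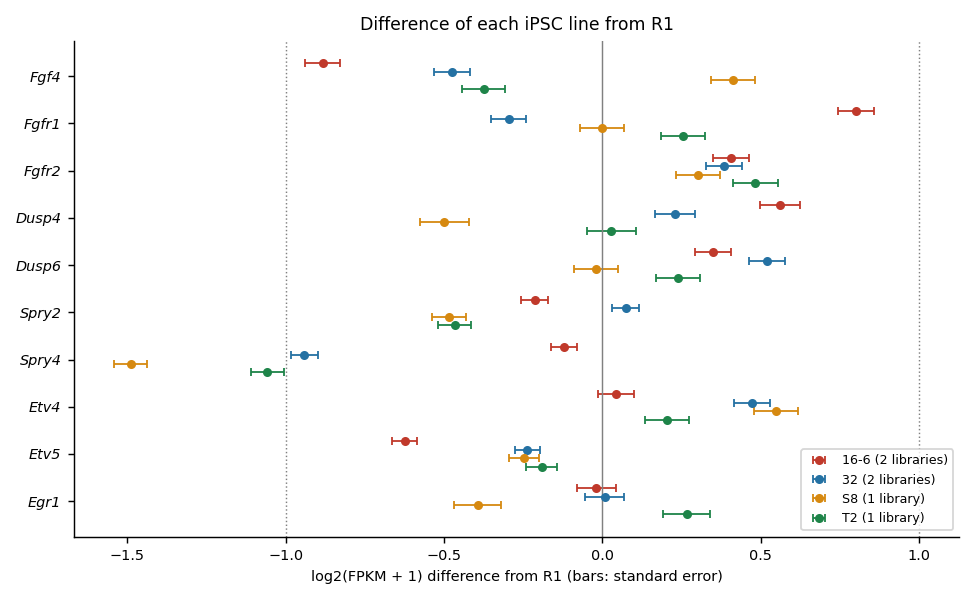
Difference of each iPSC line from R1 for the 10 genes, as log2(FPKM + 1) with standard errors from the limma fit. Dotted lines mark 2-fold. Spry4 in S8 (-1.49) and T2 (-1.06) are the points beyond them.

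Fgf4 encodes the ligand and lies at mm9 chr7:152047291-152051148, with 3 exons. Its FPKM was 78.4 and 84.0 in R1, 45.3 and 41.8 in 16-6, 58.2 and 58.1 in 32, 108 in S8 and 62.3 in T2. S8 thus had the highest level and 16-6 the lowest, and neither range touched that of R1. Against R1 the log2 difference was -0.88 with a standard error of 0.06 in 16-6, -0.47 in 32, 0.41 in S8 and -0.38 in T2, each with a limma adjusted p below the threshold (0.00036, 0.00164, 0.00432 and 0.0078) and each short of 2-fold. Between S8 and T2 it was 0.79 (limma, adjusted p = 0.00395). The levels ran in the order 16-6, 32, T2, R1 and S8, and of these neighbours 32 and T2 had overlapping confidence limits. In RNA of a whole culture, fewer cells of a type and less RNA per cell cannot be told apart.

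Fgf4 is a textbook target of Sox2 and Oct4, the product of Pou5f1, which bind side by side in an enhancer within its last exon. Pou5f1, like Fgf4, was lowest in 16-6 (485 and 492) and highest in S8 (1020), with 605 and 636 in R1, 661 and 668 in 32 and 730 in T2. Sox2 was also lowest in 16-6, at 157 and 162, and lay between 207 in T2 and 284 in S8 in the other lines. The bearing of either factor on the level of Fgf4 was not tested. The paired motif of that enhancer is shown because it is the known meeting point of these factors on the gene. It was found at mm9 chr7:152050299-152050315 on the plus strand, in the 3′ untranslated part of exon 3 of 3, 1453 bases after the stop codon. CTTTGTT (SOX type) and ATGCTAA (POU type) are in capitals within mm9 chr7:152050293-152050322:
Fgf4 paired motif: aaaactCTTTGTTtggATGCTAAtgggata
CTTTGTT followed by any 3 bases and ATGCTAA, on either strand, was present in 5 of 22878 windows of 3858 bases, the length of Fgf4, centred on each gene entry (0.0219%). The 250 bases before the start of Fgf4 are shown as the promoter on which the enhancer acts (mm9 chr7:152047041-152047290, plus strand, identical to the promoter that RefSeq gives on GRCm38.p6). Capitals mark GGGCGG, the GC box bound by Sp1, and ATTGG, the reverse complement of CCAAT:
Fgf4 promoter: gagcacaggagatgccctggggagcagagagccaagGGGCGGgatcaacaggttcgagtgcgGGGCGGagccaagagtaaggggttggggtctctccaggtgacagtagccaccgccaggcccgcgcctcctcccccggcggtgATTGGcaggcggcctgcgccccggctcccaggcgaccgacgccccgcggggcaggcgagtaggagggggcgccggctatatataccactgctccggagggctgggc
GGGCGG occurred 2 times and CCAAT 1 time, with both strands searched and no overlap between them. In the same 250 bases of 32851 RefSeq promoters, 32.7% held GGGCGG and 33.8% held CCAAT, so neither is particular to Fgf4. These matches describe the letters in the window and not occupied sites. The paired motif was searched as the string known from Fgf4, whose own window is among the 5 that held it. In genes longer than Fgf4 only the middle was searched. Its share of windows thus does not show how particular such a site is to Fgf4.

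**Figure D2:**
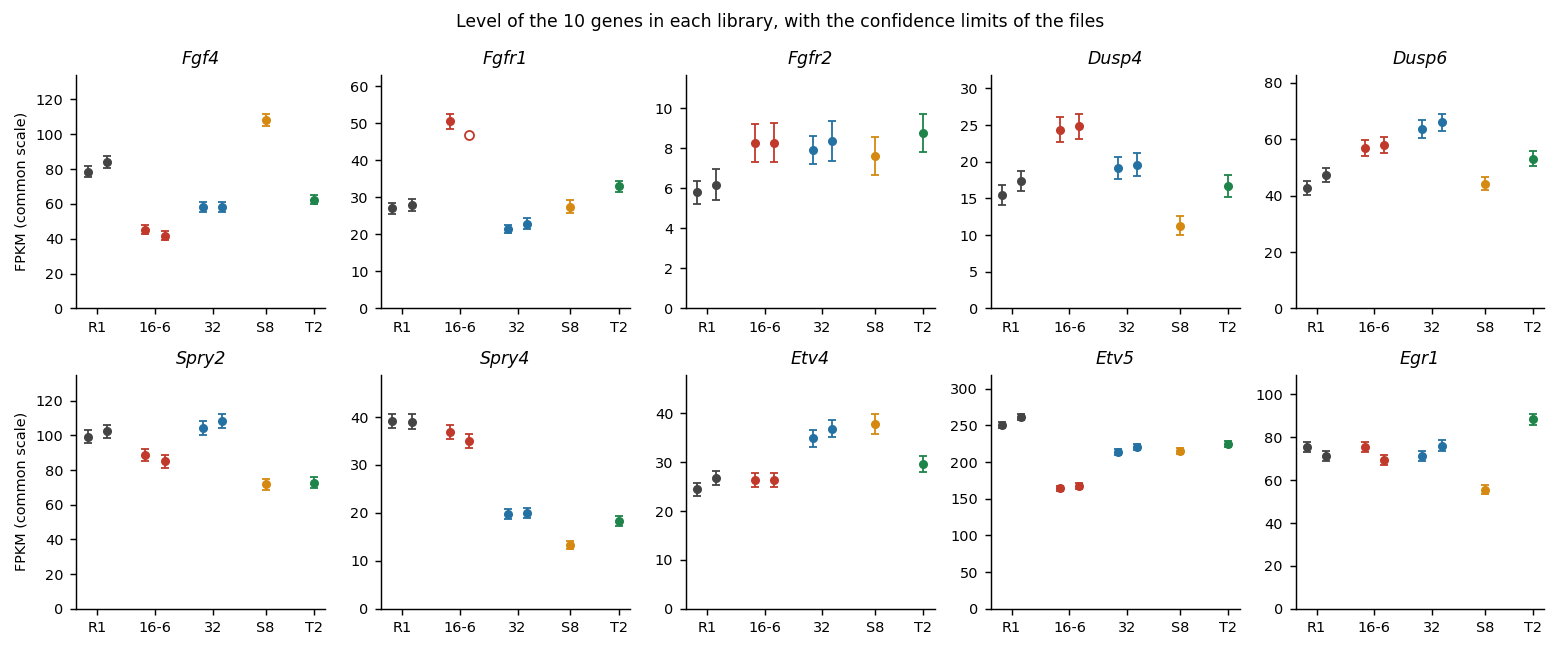
FPKM of the 10 genes on the common scale in each of the 8 libraries, with the confidence limits of the files as bars. The open symbol for Fgfr1 is the 16-6 library whose limits could not be estimated. Fgf4 reaches from 41.8 in 16-6 to 108 in S8, and Spry4 from 13.3 in S8 to 39.2 in R1.

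The other 8 FGF ligands examined were each below Fgf4 in every library, but some of them differed more between the lines. Fgf8, which signals in the epiblast and primitive streak, rose in all 4 iPSC lines. Its FPKM was 2.24 and 1.65 in R1, 20.8 and 22.6 in 16-6, 16.2 and 18.4 in 32, 8.74 in S8 and 28.3 in T2, with log2 differences from R1 of 2.95, 2.64, 1.73 and 3.32 (limma, adjusted p = 0.000134, 0.000101, 0.000468 and 0.000199). All iPSC libraries lay above both R1 libraries. Fgf5, a marker of the primed epiblast, was at 6.56 and 6.94 in R1, 15.2 and 16.6 in 16-6, 22.2 and 24.0 in 32, 13.2 in S8 and 28.3 in T2. It rose in 16-6, 32 and T2 (log2 1.13, 1.64 and 1.92), and S8, the nearest to R1, lay 1.04 below T2 (limma, adjusted p = 0.00334). Krt8 and Krt18, listed above among the trophoblast markers, were higher in the same lines, at 7.34 to 8.89 in R1 and 17.0 to 89.7 in the iPSC libraries, and their part in the result was not tested.

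Fgf15, an epiblast ligand, fell in 32, by 1.55 on the log2 scale. It was at 23.4 and 25.8 in R1, 14.3 and 15.6 in 16-6, 8.04 and 7.45 in 32, 49.4 in S8 and 34.3 in T2. Fgf17, of the same subfamily as Fgf8, had the highest mean level of these 8 ligands, 25.8, was between 16.3 in T2 and 34.7 in 32, and was called in no comparison. Fgf2, the basic FGF that fibroblasts produce, was at 2.09 and 1.13 in R1, 5.80 and 4.52 in 16-6, listed at 0 and 0.14 in 32, 0.83 in S8 and 0.35 in T2. It rose in 16-6 (1.26) and fell in 32 (-1.26), the lines with the highest and the lowest fibroblast marker sums. The markers were divided in 16-6, where 5 of 12 were called higher than in R1 and 2, Dcn and Lum, lower. The part of the fibroblast markers in this was not tested. Among ligands below 2.2 in every library, Fgf1 fell in 32 (-1.02) and Fgf3 rose in S8 (1.05). Fgf1 was low in all iPSC lines, at 0.218 to 0.461 against 1.65 and 1.44 in R1. Its differences in 16-6 (-0.94), S8 (-0.80) and T2 (-0.80) were short of 2-fold. Of all genes tested, 7.11% were called against R1 in 16-6, 9.77% in 32, 16.7% in S8 and 10.5% in T2. Altogether the 8 ligands gave 3 higher and 0 lower in 16-6, 2 and 3 in 32, 2 and 0 in S8, and 2 and 0 in T2.

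**Figure D3:**
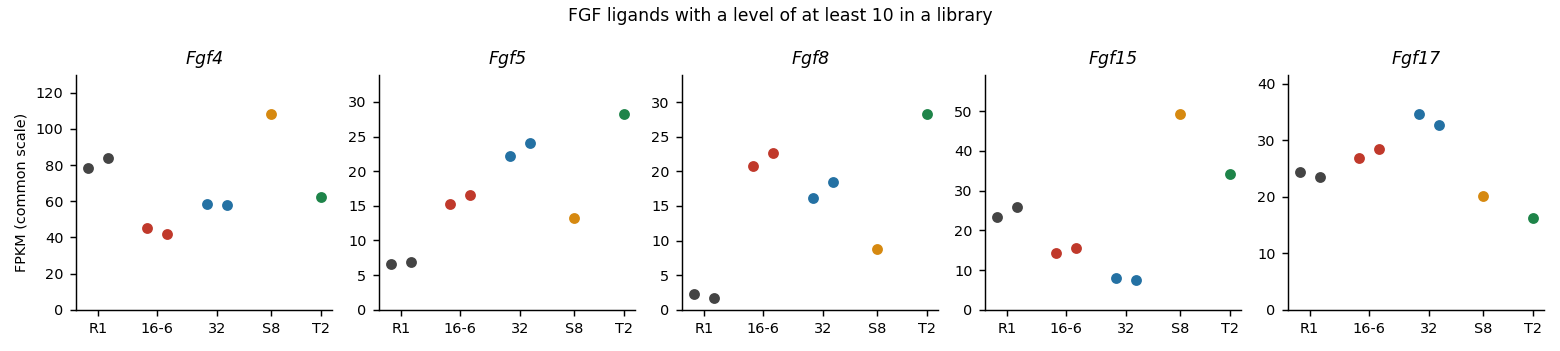
FPKM of the 5 FGF ligands that reached at least 10 in a library, in each of the 8 libraries. Each panel has its own vertical axis from 0. Fgf8 is at 2.24 or below in R1 and between 8.74 and 28.3 in the iPSC lines, and Fgf4 exceeds the other ligands in every library.

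Fgfr1, the main FGF receptor of mouse ESCs, lies at mm9 chr8:26629244-26686186, with 7 annotated coding transcripts and 18 exons in the longest. Its FPKM was 27.1 and 28.0 in R1, 50.6 and 46.9 in 16-6, 21.5 and 22.9 in 32, 27.5 in S8 and 33.0 in T2. Both libraries of 16-6 stood above all others and both of 32 below all others. Fgfr1 rose in 16-6 against 32, by 1.10 on the log2 scale with a standard error of 0.06, or 2.14-fold (limma, adjusted p = 0.000115). Relative to R1 it differed by 0.80 in 16-6 and by -0.30 in 32 (limma, adjusted p = 0.000458 and 0.00803). In the second library of 16-6, Cufflinks gave Fgfr1 the status FAIL and a lower limit of 0. Without that library the difference between 16-6 and 32 was 1.15 (limma, adjusted p = 0.00171). The fibroblast markers moved the same way, with a summed FPKM of 1565 and 1555 in 16-6 against 68.1 and 67.5 in 32, and 12 of 12 were called higher in 16-6. T2 was above R1 in Fgfr1 (log2 0.25), with a fibroblast marker sum of 532 against 902 and 938. Single markers did not all follow the sum. Col1a1 was at 243 in T2 against 174 and 180 in R1, and Dcn at 11.0 against 217 and 204. Fibroblasts also express Fgfr1, and the part of the feeder cells in these differences was not tested.

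Fgfr2, whose IIIc form is the FGF4 receptor of the primitive endoderm and trophoblast lineages, was the lowest of the 10 genes. It lies at mm9 chr7:137305965-137410322 and has 20 annotated coding transcripts. Its FPKM was 5.81 and 6.19 in R1, 8.26 and 8.29 in 16-6, 7.92 and 8.36 in 32, 7.63 in S8 and 8.78 in T2. All iPSC libraries were above both R1 libraries, by 0.30 to 0.48 on the log2 scale (limma, adjusted p = 0.00344, 0.0035, 0.0139 and 0.00371), below 2-fold. None of the neighbouring lines had confidence limits apart. These limits imply 251 to 524 fragments per library, a number that is approximate for a gene with several transcripts. Of the 9 other receptor and coreceptor genes, which include Fgfr3, Fgfr4 and the heparan sulfate enzymes, 0 were called against R1 in any line. Of all genes tested, 7.11% to 16.7% were called in the same comparisons. Ext1, a heparan sulfate polymerase, had the highest mean level of the 9, 46.8. Ndst1, which sulfates heparan, was higher in 16-6 (20.6 and 21.3) than in 32 (9.28 and 9.27), by 1.09 (limma, adjusted p = 5.5e-05), in the same direction as Fgfr1.

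Downstream of the receptors few genes were called, but of all genes tested 2.75% to 16.7% were called in a comparison. A count of 0 or 1 in a list of 8 or 10 genes lies near that share. Of the 8 adaptor genes, 0 were called in any of the 7 comparisons, and Gab1, a docking protein with the highest mean level of the group (97.8), ran from 75.5 in 16-6 to 124 in R1. Of the 10 genes of the RAS to ERK cascade, Map2k2, which encodes MEK2, was called. It was at 27.4 and 31.8 in R1, 47.2 and 44.7 in 16-6, 42.2 and 46.0 in 32, 89.4 in S8 and 65.2 in T2, and rose in S8 (1.57) and T2 (1.12) (limma, adjusted p = 0.000248 and 0.00106).

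The Sprouty genes did not move in parallel. Spry4, at mm9 chr18:38745919-38760922, had an FPKM of 39.2 and 39.1 in R1, 36.8 and 34.9 in 16-6, 19.8 and 20.01 in 32, 13.3 in S8 and 18.3 in T2. R1 and 16-6 formed the upper range, and the libraries of 32, S8 and T2 all lay below it without overlap. Spry4 fell in S8 by 1.49 on the log2 scale, with a standard error of 0.05, or 2.81-fold (limma, adjusted p = 7.44e-05), and in T2 by 1.06, or 2.08-fold (limma, adjusted p = 0.00023). In 32 the difference was -0.94 (limma, adjusted p = 0.0001), just short of 2-fold, and in 16-6 it was -0.12 (limma, adjusted p = 0.0578). The mean of the iPSC lines was -0.90 (limma, adjusted p = 7.6e-05), and between 16-6 and 32 the difference was 0.82 (limma, adjusted p = 0.000112). The fibroblast marker sums of R1 and 16-6 (902 to 1565) were likewise above those of 32, S8 and T2 (67.5 to 532), although S8, where Spry4 was lowest, had a higher sum than 32. The part of these cells in the result was not tested.

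Spry2, at mm9 chr14:106291164-106296036, was at 99.4 and 102 in R1, 88.8 and 85.0 in 16-6, 104 and 108 in 32, 71.8 in S8 and 72.7 in T2. S8 and T2 were below every other library and differed from R1 by -0.48 and -0.47 (limma, adjusted p = 0.000969 and 0.0017). In 32, where Spry4 was near its low range, Spry2 differed from R1 by 0.07 (limma, adjusted p = 0.191), a sign that turned under other scalings. Spry1, the third family member, ran the other way: at 4.75 and 5.46 in R1, 7.46 and 6.44 in 16-6, and 7.72 and 7.35 in 32, it rose in S8 (15.0, log2 1.39) and T2 (17.6, log2 1.61). Thus S8 and T2 had less Spry4 and more Spry1 than R1, with Spry2 still the most abundant of these genes in every library.

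The phosphatase genes Dusp4 and Dusp6 encode a nuclear and a cytoplasmic enzyme. Dusp4, at mm9 chr8:35870664-35882948, was at 15.5 and 17.4 in R1, 24.4 and 24.9 in 16-6, 19.2 and 19.6 in 32, 11.3 in S8 and 16.7 in T2. It was highest in 16-6 and lowest in S8, with log2 differences from R1 of 0.56 and -0.50 (limma, adjusted p = 0.00171 and 0.00329). T2 could not be separated from R1, at 0.03 (limma, adjusted p = 0.789), a sign that turned when R1 replicate 1 was left out and when upper quartiles were set equal. Dusp6, at mm9 chr10:98725865-98730123 and known as a direct readout of FGF-ERK activity, was at 42.7 and 47.2 in R1, 57.0 and 58.0 in 16-6, 63.7 and 66.0 in 32, 44.3 in S8 and 53.2 in T2. The 2 mesodermal lines had the highest levels and were above R1 by 0.35 and 0.52 (limma, adjusted p = 0.00542 and 0.00128). T2 was above R1 by 0.24, with confidence limits that overlapped those of 16-6, while S8 overlapped R1. Fgf4 was lower than in R1 in 16-6, 32 and T2 alike.

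Among the 12 further inhibitors, 1 rose and 0 fell in 16-6, 0 and 0 in 32, 3 and 2 in S8, and 3 and 0 in T2. Calls over all genes tested came to 7.11%, 9.77%, 16.7% and 10.5% in the same order of lines. Dusp7, another cytoplasmic ERK phosphatase, was at 5.79 and 5.32 in R1 and between 11.2 and 15.6 in the iPSC libraries. It rose in 16-6 (1.30), S8 (1.21) and T2 (1.27), while 32 was the iPSC line closest to R1, at 11.2 and 12.5. Dusp9 was at 22.3 and 24.9 in R1, 43.2 and 44.3 in 16-6, 46.6 and 48.8 in 32, 64.1 in S8 and 51.7 in T2, and rose in S8 (1.41) and T2 (1.10). For the mean of the iPSC lines, Dusp7 and Dusp9 rose by 1.19 and 1.09 (limma, adjusted p = 0.000156 and 0.000126). In S8, 2 negative regulators of RAS signaling fell: Nf1, which encodes a RAS GTPase-activating protein (from 9.64 and 9.95 in R1 to 2.44, log2 -1.65), and Spred1, which brings it to the membrane (from 53.0 and 63.2 to 25.7, log2 -1.14). Spred1 had the highest mean level of the 12, 52.5. Il17rd, which encodes the FGF antagonist Sef, was lower in S8 (10.3) than in T2 (23.5), by 1.12.

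Etv4 and Etv5 encode ETS factors that FGF-ERK signaling induces. Etv5, at mm9 chr16:22381386-22439643, was the most abundant of the 10 genes in every library, at 251 and 262 in R1, 164 and 167 in 16-6, 214 and 221 in 32, 216 in S8 and 224 in T2. Both R1 libraries were above every iPSC library and both of 16-6 below all others. The differences from R1 were -0.62 in 16-6, -0.24 in 32, -0.25 in S8 and -0.19 in T2 (limma, adjusted p = 0.000365, 0.0052, 0.00777 and 0.0227). Etv4, at mm9 chr11:101631056-101646624, was at 24.5 and 26.8 in R1, 26.4 and 26.4 in 16-6, 34.9 and 36.9 in 32, 37.9 in S8 and 29.6 in T2. Here 32 and S8 had the highest values, 0.47 and 0.55 above R1 (limma, adjusted p = 0.00173 and 0.00165), and 16-6 lay within the range of R1. The level of Etv5 was thus lower, and that of Etv4 higher or not separable, in each iPSC line relative to R1.

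Of the 10 other genes listed as ERK-responsive in transcription, 4 fell and 0 rose in each of 32, S8 and T2, and 0 of 10 were called in 16-6. The share of all genes tested that was called was 9.77% in 32, 16.7% in S8, 10.5% in T2 and 7.11% in 16-6. Over all genes tested, calls were also more often lower than higher in 32, S8 and T2. They were 1127 against 211 in 32, 1334 against 949 in S8 and 896 against 541 in T2. Ier3, an early response gene, was at 124 and 135 in R1, 68.2 and 71.2 in 16-6, 17.5 and 15.9 in 32, 22.1 in S8 and 23.1 in T2, and fell in 32, S8 and T2 (log2 -2.89, -2.50 and -2.44). Elk3, an ETS factor of the ternary complex family, was at 17.8 and 17.8 in R1, 23.2 and 24.2 in 16-6, 3.45 and 4.37 in 32, 5.41 in S8 and 5.35 in T2, and fell in the same 3 lines. Fosl1, an AP-1 subunit, fell in these lines too, and Phlda1 fell in 32. Elk4 fell in S8 (from 11.0 and 11.1 in R1 to 1.61) and in T2 (to 4.78). In 16-6 against 32, Elk3, Phlda1, Ier3 and Fosl1 rose, by 2.34, 1.36, 2.00 and 2.03. Between these lines 10.3% of all genes tested were called, 1263 higher and 149 lower in 16-6. Fibroblast marker sums were 1565 and 1555 in 16-6, 902 and 938 in R1, and 67.5 to 532 in the other lines, and the part of these cells in the result was not tested. Ccnd1, the cyclin with the highest mean level of the list (143), was between 98.9 in 32 and 189 in 16-6 and was not called.

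Egr1 encodes the zinc finger immediate early factor that follows ERK activation within minutes, and lies at mm9 chr18:35020861-35024610. Its FPKM was 75.4 and 71.3 in R1, 75.3 and 69.5 in 16-6, 71.3 and 76.2 in 32, 55.5 in S8 and 88.3 in T2. R1, 16-6 and 32 overlapped fully, S8 was below and T2 above all of them. In S8 the difference from R1 was -0.39 and in T2 it was 0.27 (limma, adjusted p = 0.00682 and 0.031), and between S8 and T2 it was -0.66 (limma, adjusted p = 0.00681). Both single libraries thus stood apart from the 6 replicated ones in opposite directions. The 12 other immediate early genes gave 2 higher and 0 lower in 16-6, 0 and 1 in 32, 0 and 2 in S8, and 1 and 1 in T2. Shares called over all genes tested were 7.11%, 9.77%, 16.7% and 10.5% in the same order of lines. Fos was at 34.0 and 36.0 in R1, 77.7 and 71.8 in 16-6, 58.3 and 61.7 in 32, 68.3 in S8 and 96.0 in T2. It rose in 16-6 (1.07) and T2 (1.43). Egr3 was at 6.40 and 6.45 in R1 and 5.65 and 5.34 in 16-6, and fell in 32 (2.05 and 1.70), S8 (1.51) and T2 (2.27). Egr2 rose in 16-6 (from 2.90 and 2.77 to 6.76 and 6.58), and Btg2 fell in S8 (from 30.5 and 37.0 to 15.9). Nr4a1 was higher in 16-6 (89.5 and 85.8) than in 32 (29.1 and 32.9), by 1.47. Ier2, the most abundant of these genes with a mean of 159, was not called.

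Over the 69 pathway genes of these lists together, 6 rose and 0 fell in 16-6, 2 rose and 8 fell in 32, 6 rose and 8 fell in S8, and 7 rose and 5 fell in T2. Calls made up 7.11% of all genes tested in 16-6, 9.77% in 32, 16.7% in S8 and 10.5% in T2. Under quantile normalization 3 of the pathway genes rose and 6 fell in 32, and 8 rose and 7 fell in S8. With equal upper quartiles 2 rose and 8 fell in 32, and 5 rose and 10 fell in S8. Over all genes tested the calls in 32 were likewise mostly lower, 1127 against 211, and in 16-6 they were nearly even, 490 higher and 484 lower. The median log2 difference was 0.18, -0.15, -0.08 and 0.07, against -0.03, -0.02, -0.03 and -0.03 over all genes tested.

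The balance between related genes also differed by line. The ratio of Spry2 to Spry4 was 2.54 and 2.62 in R1 and 2.41 and 2.43 in 16-6, against 5.26 and 5.42 in 32, 5.40 in S8 and 3.98 in T2. That of Etv5 to Etv4 was 10.3 and 9.77 in R1 and 5.69 to 7.56 in the iPSC libraries, with no overlap. Dusp6 exceeded Dusp4 by 2.33 to 3.92 times, least in 16-6 and most in S8. For Fgfr1 over Fgfr2 the ratio was 4.66 and 4.52 in R1, 6.13 and 5.66 in 16-6, 2.72 and 2.74 in 32, 3.60 in S8 and 3.76 in T2. The ligand Fgf4 exceeded its receptor Fgfr1 in every line except 16-6, where the ratio was 0.895 and 0.892. These ratios are given as a description, without a test.

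**Figure D4:**
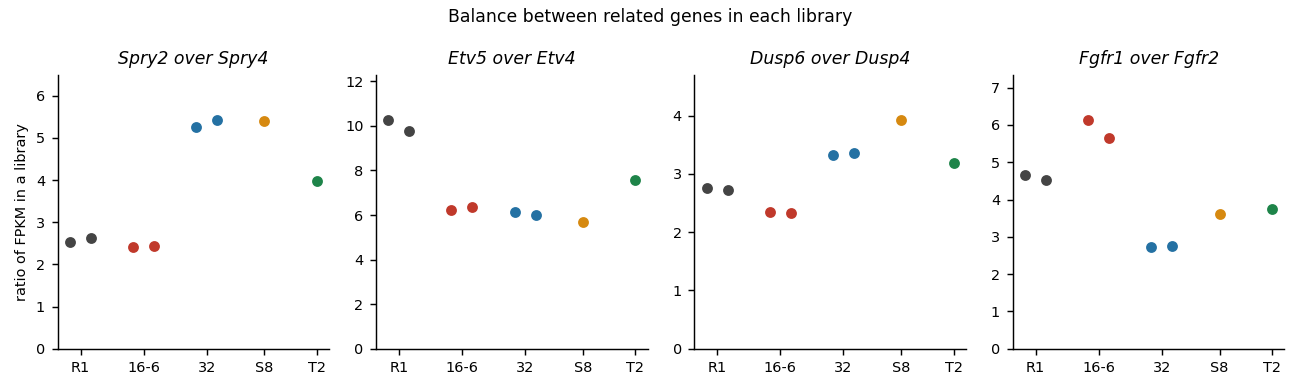
Ratio of the FPKM of related genes in each of the 8 libraries, with axes from 0. Spry2 over Spry4 is near 2.5 in R1 and 16-6 and at least 3.98 in the other lines, and Etv5 over Etv4 is highest in R1.

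Within the 10 genes the range over the 5 lines, taken as the distance between the highest and the lowest line mean, was widest for Spry4 (1.49 on the log2 scale), followed by Fgf4 (1.30), Fgfr1 (1.10) and Dusp4 (1.06). The remaining genes spanned 0.48 to 0.66. The median was 0.64 for the 10 genes and 0.82 for all genes tested, and 4 of 10 spanned at least 2-fold, against 36.3% of all genes. Of 40 pairs of neighbouring lines in the order of the 10 genes, 18 had confidence limits that were apart and 22 did not. Among the 22 was Fgfr1 between T2 and 16-6, where the 16-6 library with the status FAIL has a lower limit of 0. The same count was not made over all genes, so it describes the 10 genes and does not set them apart. S8 was the lowest line for Dusp4, Dusp6, Spry2, Spry4 and Egr1 and the highest for Fgf4 and Etv4, although its confidence limits overlapped those of the next line for Dusp6, Spry2 and Etv4. Line 16-6 was the lowest for Fgf4 and Etv5.

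For the 4 genes with the widest range, the tested genes with the most similar pattern were found by the root mean square difference of centred log2(FPKM + 1) over the 8 libraries. Closest to Fgf4 were Pax8 (0.08), Coro2b (0.10) and Znrd1as (0.10). Fgfr1 was nearest to Hoxb4, Pdia5 and Megf10, each at 0.08. Dusp4 had Atp6v0a2 (0.06), Snx19 (0.07) and Prkar2a (0.07), and Spry4 had Sgms2 (0.06), Spag9 (0.06) and Hyal1 (0.08). These are the smallest of many distances over 8 libraries of 5 lines, and nothing of shared function or control follows from them.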

How the data were processed

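The 8 deposited tables hold FPKM values with confidence limits, which the authors computed with Cufflinks (2.0.0 in the submitters' processing notes, another release in the study's methods) from reads mapped to mm9 with TopHat 2.0.4. The deposited FPKM sum to 1.14 to 1.60 times 1e10 per library, for a reason not given in the sources used here, and all were divided by the same constant, 12725.7, which sets the median library total to 1000000. Depth was estimated from the confidence limits as the fragments they imply, and is approximate for genes with several transcripts. Coordinates are in mm9, counted from 1.

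The 13693 genes that reached a value of 1 in any library were fitted as log2(FPKM + 1) with limma 3.58.1 under R 4.3.3, using a mean-variance trend. The fit held the 8 libraries as 5 groups, which leaves 3 residual degrees of freedom. Calls required a Benjamini-Hochberg adjusted p below 0.05 and at least 2-fold. Fold changes on this scale understate those of low genes. An exact permutation test of 2 against 2 libraries cannot go below p = 0.33. The fit was also run on simulated data with known changes, under different estimates of the replicate noise, and the outcome is not reported here. Means, orders and ratios used Python 3.11.15 and pandas 2.3.3. The genes named are the 10 genes, those past the threshold and the highest of each pathway list, and the 3 nearest patterns of the 4 genes with a range of at least 2-fold. The highest gene of 1 list is not reported here. Neighbouring lines were said to be apart where the confidence limits of all their libraries were. The genes, lists and tests were chosen with earlier results of these data known. Replicate numbers did not pair samples, since the replicate differences of R1, 16-6 and 32 correlated at -0.10 to 0.03 across genes. Sequences came from the mm9 genome, with GENCODE M1 annotation, and promoters from RefSeq (GRCm38.p6), which held 5 of the 10 genes. Alternatives were another pseudocount, filter, scaling and variance prior, no fold minimum, fewer samples and a replicate block.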

Additional observations from a re-analysis of the deposited data

Results flagged for a closer look

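Only the pairs 16-6 with 32 and S8 with T2 were examined. In 3 results, the differences of such a pair from R1 lay on opposite sides of 0, each with an adjusted p below 0.05. The difference between the lines of the pair was itself tested with limma. The other pairs of iPSC lines were not searched and also hold opposite differences from R1, such as Dusp4 at 0.56 in 16-6 and -0.50 in S8. Fgfr1 was 1.10 higher on the log2 scale in 16-6 than in 32. Fgf4 was 0.79 higher in S8 than in T2. Egr1 in S8 minus T2 was -0.66. S8 and T2 have 1 library each.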

How the results depend on the processing

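Without the 2-fold minimum, the number of the 10 genes past the threshold was 7 in 16-6, 8 in 32, 8 in S8, 8 in T2 and 8 for their mean, each against R1, 8 in 16-6 against 32, and 5 in S8 against T2. Setting the upper quartiles equal gave 1 (Spry4) in 32 against R1, in place of 0. That scaling moved the median of all genes from -0.03 to -0.12 in S8 and from -0.02 to -0.10 in 32. Of 1020 values of 70 log2 differences, 950 kept their direction and side of the threshold, 50 passed it newly, 0 lost it and 20 changed sign, all of differences of at most 0.07. These include the values without the 2-fold minimum, which repeat the main difference and can neither change sign nor lose a call. Apart from Spry4 in 32 with equal upper quartiles, the new passes came from dropping that minimum. Under quantile normalization the sign turned for Spry2 (-0.10) and Egr1 (-0.14) in 32 against R1 and for Fgfr2 (-0.18) and Egr1 (0.13) in 16-6 against 32. With equal upper quartiles it turned for Spry2 (-0.022) and Egr1 (-0.088) in 32 against R1, Dusp4 (-0.035) in T2 against R1 and Egr1 (0.036) in 16-6 against 32. Leaving out 1 replicate at a time gave ranges that cross 0 for Etv4 (-0.021 to 0.10) and Egr1 (-0.076 to 0.038) in 16-6, Egr1 in 32 (-0.040 to 0.054), Fgfr1 (-0.026 to 0.021) and Dusp6 (-0.091 to 0.050) in S8, Dusp4 (-0.051 to 0.11) in T2 and Egr1 (-0.075 to 0.0052) for the mean, each against R1, and for Fgfr2 (-0.013 to 0.057) and Egr1 (-0.083 to 0.031) in 16-6 against 32. The cause was not tested.

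With the replicate block, 0 genes in 16-6, 0 in 32 and 1 (Fgfr1) in 16-6 against 32 passed, as without it, and the block changed no other call, but the mean of the iPSC lines then held 16-6 and 32 only, and Spry4 was at -0.53 there in place of -0.90. Counting the 16-6 libraries as 1 sample, an alternative chosen after seeing the data, changed no call. Calls rest on 3 residual degrees of freedom and on single libraries of S8 and T2, and the files hold no read counts.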
